A study of Arabidopsis thaliana with 24 samples.

Results

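The comparison is of Arabidopsis thaliana roots 24 h after sodium chloride was added to the medium with roots 0.5 h after it, across all genes on the array. It uses 4 of the 24 arrays of the series, the 2 labelled roots at 24 h and the 2 labelled roots at 0.5 h, chosen by their labels and not by any measured value. All plants were of the accession Col-0, grown on Murashige and Skoog medium, and received 150 mM NaCl on day 16, after 3 h of light in a day with 16 h of light. The 2 times therefore fell at nearly the same clock time, but the plants of 24 h were about a day older. Untreated plants are not analysed here, so time after salt and plant age cannot be told apart. Values are array signals on a linear scale, and differences are 24 h minus 0.5 h on the scale log2(signal + 2.205), on which dim genes change less than on a plain log scale. Each difference is given ± its standard error with the adjusted p of limma, a linear model fitted over all 24 arrays, and each group holds 2 arrays (n = 2). Whether the arrays of one group stem from different cultures is not in the labels. The p-values thus cover just the spread among these samples, possibly technical, and the number of arrays limits the precision.

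The 2 arrays of 24 h correlated at r = 0.981 and those of 0.5 h at 0.979 over the 15199 probe sets tested, and probe sets are no independent replicates. The error shared by all groups also takes in the 2 root arrays of 12 h, which correlated at 0.857. The root label was checked against marker genes. PYK10, an abundant beta-glucosidase of root endoplasmic reticulum bodies, had signals of 3728 and 3951 in roots at 24 h, against 3040 and 3261 in roots at 0.5 h, and of 407 to 595 in shoots at 0.5 h. The summed signal of 6 shoot photosynthesis markers, none of them at 0, was 999.6 and 808.9 in the roots of 24 h and 411 and 535 in those of 0.5 h. These sums are 4.01% and 3.24% at 24 h, against 1.65% and 2.14% at 0.5 h, of the mean sum in 4 shoot arrays. 3 of the 6 were called higher at 24 h, and this count was 1 when replicate 1 of 0.5 h was left out and 0 when replicate 1 of 24 h was. The part of shoot tissue in the results below was not tested. In bulk tissue, fewer cells of a type and less RNA per cell cannot be told apart.

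Salt reaches roots as both water deficit and sodium ions. Roots are known to answer with protective proteins such as late embryogenesis abundant (LEA) proteins and chaperones, with detoxifying enzymes and transporters, and with slower growth, in which wall loosening and cell division decline. Many of these transcripts are known to follow the hormone abscisic acid, which accumulates when water is short.

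After a day in salt, 2210 of 15199 probe sets (14.5%) differed from 0.5 h by at least 2-fold with an adjusted p under 0.05. Of these 1219 (8.02%) were higher and 991 (6.52%) lower at 24 h. The rises were larger than the falls. The median rise was 1.78 and the median fall was -1.27, while the median of all probe sets tested was -0.14. At least 4-fold changes numbered 502 rises and 114 falls, at least 8-fold changes 229 rises and 17 falls, and at least 16-fold changes 100 rises and 3 falls. In 205 of the rises the level at 0.5 h was under the 25th percentile of all array values, 10.7, so these genes were at the dim end of the array before they rose. Both arrays of one time lay beyond both of the other in all 2210, but this was so in 75.8% of all probe sets tested, with 24 h above in 29.4% and below in 46.4%. The calls rested on few arrays. 725 rises (59.5%) and 499 falls (50.4%) remained called without each of the 4 arrays in turn.

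**Figure D1:**
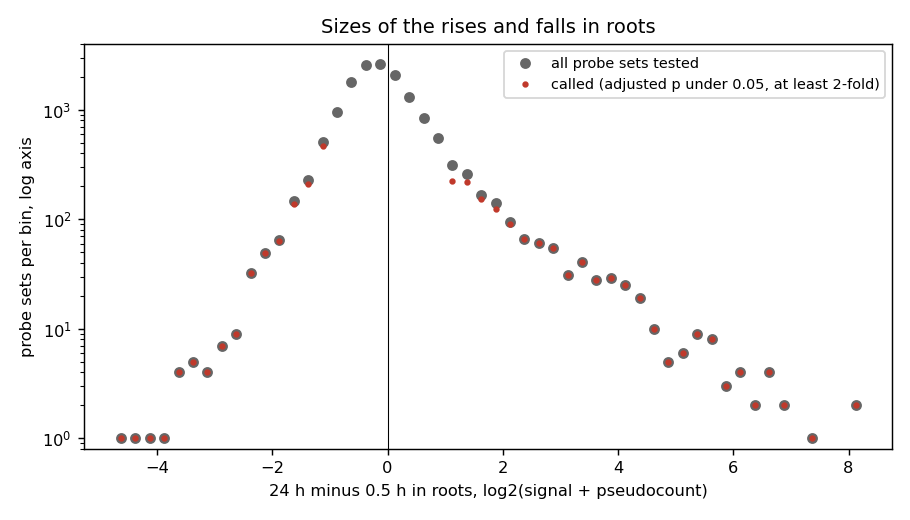
Number of probe sets (log axis) in bins of 0.25 of the difference between 24 h and 0.5 h in roots, on the log2 scale with the pseudocount, for all 15199 tested and for the 2210 called. The called rises reach further from 0 than the called falls, with medians of 1.78 and -1.27.

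The largest rises among genes at or above the 25th percentile at 0.5 h were in genes of varied function. AT2G04050, a transporter of the MATE family, which moves small organic molecules out of the cytosol, had signals of 1792 and 1261 at 24 h, against 11.8 and 9.77 at 0.5 h (6.86 ± 0.63, adjusted p = 3.38e-06). A second MATE transporter, AT2G04070, had 833 and 568 at 24 h, against 13.7 and 14.4 at 0.5 h (5.41 ± 0.75, adjusted p = 0.000101). Both genes were dim on both arrays of 0.5 h and bright on both of 24 h, and neither was called in shoots. AT3G02480, a LEA gene, had 1757 and 1293 at 24 h, against 26.4 and 22.9 at 0.5 h (5.82 ± 0.67, adjusted p = 2.10e-05). AT2G37870, of the lipid transfer protein type, had 2110.0 and 1798 at 24 h, against 34.5 and 36.0 at 0.5 h (5.70 ± 0.38, adjusted p = 1.83e-07). For both, the 2 arrays of each time lay close together and the times were far apart. AT2G15780, a cupredoxin-type copper protein, had 718 and 637 at 24 h, against 11.7 and 11.7 at 0.5 h (5.61 ± 0.74, adjusted p = 6.33e-05). AT3G53600, which encodes ZAT18, a C2H2 zinc finger, had 745 and 701 at 24 h, against 22.8 and 9.34 at 0.5 h (5.42 ± 0.75, adjusted p = 9.41e-05). AT4G28460, the precursor of a secreted signalling peptide, had 1107 and 1076 at 24 h, against 37.3 and 47.1 at 0.5 h (4.63 ± 0.60, adjusted p = 6.00e-05). AT2G18190, an AAA-type ATPase, rose by 4.84 ± 0.62. AT2G41730 had 3312 and 2958 at 24 h, against 35.6 and 22.9 at 0.5 h (6.67 ± 0.65, adjusted p = 4.83e-06), on a probe set that can share probes with other transcripts.

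**Figure D2:**
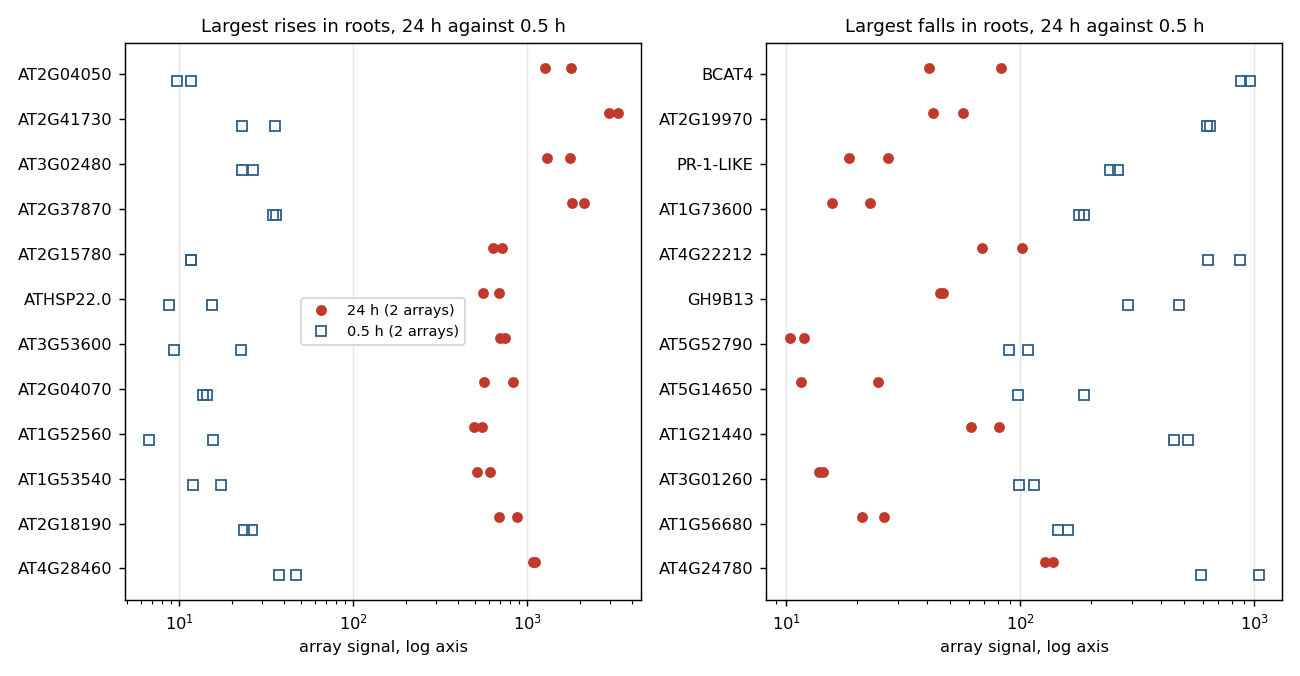
Signal on each of the 2 root arrays of 24 h (filled circles) and of 0.5 h (open squares), on a log axis, for the 12 genes with the largest rises and the 12 with the largest falls whose lower group was at least at the 25th percentile of all values. In each of the 24 genes the 2 times do not overlap, as the choice of genes requires.

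Another set of genes was at or under the dim end of the array at 0.5 h and bright at 24 h. AT1G74870, a RING finger protein, had signals of 978 and 999 at 24 h, against 1.53 and 1.65 at 0.5 h (8.03 ± 0.82, adjusted p = 7.84e-06). AT5G43450, a 2-oxoglutarate-dependent dioxygenase, had 1154 and 1112 at 24 h, against 6.30 and 13.6 at 0.5 h (6.62 ± 0.60, adjusted p = 3.38e-06). AT4G16680, a helicase-type nucleotide hydrolase, had 928 and 924 at 24 h, against 7.82 and 7.97 at 0.5 h (6.52 ± 0.72, adjusted p = 1.63e-05). All 3 had means under the 25th percentile of all values at 0.5 h, where the pseudocount weighs on the size of a rise. AT5G28520, a jacalin-type lectin, had 690 and 656 at 24 h, against 3.16 and 4.49 at 0.5 h (6.82 ± 0.62, adjusted p = 3.38e-06). AT3G15670, a LEA gene, rose by 5.22 ± 0.72 to 394 and 177, and the protein kinase AT1G71530 by 4.81 ± 0.68 to 372 and 330.

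Among genes bright at 24 h that were already measured well at 0.5 h, several rose by less. AT1G76600 had 2504 and 2444 at 24 h, against 173 and 122 at 0.5 h (4.07 ± 0.51, adjusted p = 4.66e-05). AT2G32020, an N-acetyltransferase of the GNAT family, had 1995 and 1906 at 24 h, against 207 and 156 at 0.5 h (3.43 ± 0.60, adjusted p = 0.000535). AT5G42050, a protein with a DCD domain known from cell death and stress responses, had 2190.0 and 1860.0 at 24 h, against 745 and 702 at 0.5 h (1.48 ± 0.26, adjusted p = 0.000575). The rises of AT4G23670, of the Bet v 1 family (1.37 ± 0.38), and AT3G56880, a VQ motif protein (1.27 ± 0.39), each rested on single arrays. For AT4G23670 the adjusted p was 0.216 when replicate 1 of 0.5 h was left out and 0.0778 when replicate 2 of 24 h was. AT3G56880 had an adjusted p between 0.0534 and 0.118 without either array of 24 h or replicate 2 of 0.5 h.

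All 7 measured genes of a heat shock and chaperone list rose, against 8.02% of all probe sets, with a median of 3.46. The list named 23 genes, and those without a probe set named here were not analysed. ATHSP22.0, an endoplasmic reticulum member of the small heat shock protein family, had signals of 687 and 554 at 24 h, against 15.5 and 8.70 at 0.5 h (5.48 ± 0.58, adjusted p = 1.08e-05). AT1G52560, another small heat shock protein, had 548 and 497 at 24 h, against 6.66 and 15.6 at 0.5 h (5.38 ± 0.52, adjusted p = 4.36e-06). AT1G53540, a small heat shock protein of the cytosol, had 612 and 512 at 24 h, against 17.5 and 12.02 at 0.5 h (5.07 ± 0.66, adjusted p = 6.32e-05). In each of these both 24 h arrays were far above both 0.5 h arrays. AT5G51440, a small heat shock protein of mitochondria, rose by 3.46 ± 0.96, and leaving out replicate 2 of 0.5 h (adjusted p = 0.0695) ended its call, as did leaving out replicate 1 of 24 h (adjusted p = 0.0635). The other 6 remained called without each of the 4 arrays. Of 18 genes of a list on protein folding in the endoplasmic reticulum 2 rose, a share near the 8.02% of all probe sets, and the list median was -0.16. They were BZIP60, the transcription factor of the unfolded protein response, and Fes1A, a partner of cytosolic Hsp70. BZIP60 had 1710.0 and 1368 at 24 h, against 320.1 and 237 at 0.5 h (2.46 ± 0.43, adjusted p = 0.000576). Fes1A had 1181 and 1343 at 24 h, against 136 and 122.9 at 0.5 h (3.26 ± 0.57, adjusted p = 0.00053).

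A list of alternative respiration and mitochondrial stress genes rose in 3 of 6 measured members (list median 1.31), against 8.02% of all probe sets. In an overlapping list of 9 such genes, 2 rose and the median was 0.42. NDB4, an external NAD(P)H dehydrogenase that feeds the respiratory chain without pumping protons, had signals of 255 and 161 at 24 h, against 1.26 and 2.11 at 0.5 h (5.73 ± 0.71, adjusted p = 4.20e-05). AT2G21640, known as UPOX and used as a marker of oxidative stress in mitochondria, had 582 and 416 at 24 h, against 20.4 and 20.6 at 0.5 h (4.44 ± 0.84, adjusted p = 0.000933). NDB2, a second external dehydrogenase, had 1177 and 897 at 24 h, against 275 and 302 at 0.5 h (1.82 ± 0.32, adjusted p = 0.000613), a call lost with 1 h as the reference. NDB4 was near the lower end of the array at 0.5 h, NDB2 well above it.

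SWEET genes, which encode transporters that let sugars move down their gradient across a membrane, rose in 5 of 9 measured members, against 8.02% of all probe sets, with a list median of 1.97. SAG29, also called SWEET15 and known from senescing leaves, had signals of 309 and 237 at 24 h, against 40.3 and 23.3 at 0.5 h (3.05 ± 0.51, adjusted p = 0.000417). SWEET2, a vacuolar sugar transporter, had 316 and 268 at 24 h, against 34.1 and 37.7 at 0.5 h (2.95 ± 0.31, adjusted p = 1.01e-05). SWEET8 had 64.8 and 93.4 at 24 h, against 6.28 and 11.7 at 0.5 h (2.88 ± 0.34, adjusted p = 2.82e-05). SWEET13, a sucrose transporter, had 217 and 222 at 24 h, against 29.0 and 35.0 at 0.5 h (2.70 ± 0.37, adjusted p = 8.95e-05). All 5 remained called without each of the 4 arrays, and no member fell, while with 1 h as the reference 6 rose and 1 fell. In primary metabolism, PPDK, pyruvate orthophosphate dikinase, had 232 and 176 at 24 h, against 52.4 and 46.5 at 0.5 h (1.98 ± 0.21, adjusted p = 1.22e-05). PPDK was the one call among 13 genes of a citrate cycle list, against 14.5% of all probe sets called.

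Genes of leucine breakdown rose in 3 members of a list of 9 (median 0.78), against 8.02% of all probe sets. IVD, isovaleryl-CoA dehydrogenase, had signals of 354 and 324 at 24 h, against 146 and 115.2 at 0.5 h (1.37 ± 0.24, adjusted p = 0.00053). MCCA, a subunit of methylcrotonyl-CoA carboxylase, the next enzyme of leucine breakdown, had 328 and 287 at 24 h, against 127 and 144 at 0.5 h (1.17 ± 0.19, adjusted p = 0.000352). MCCB, the other subunit, rose by 1.06 ± 0.16, but stayed under 2-fold (0.97) when replicate 1 of 24 h was left out. All 3 were brighter on both arrays of 24 h than on either of 0.5 h. Of 10 autophagy genes, 2 rose, against 8.02% of all probe sets, and the list median was 0.13. Both encode ATG8 proteins, which are attached to the membrane of the forming autophagosome. ATG8E had 731 and 709 at 24 h, against 233 and 217 at 0.5 h (1.67 ± 0.20, adjusted p = 3.41e-05), and ATG8H rose by 1.42 ± 0.21.

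Beta-glucosidase genes, whose enzymes release sugars from glycosides, rose in 6 of 13 members and fell in 1 (median 0.85), against 8.02% higher and 6.52% lower among all probe sets. BGLU24 had signals of 415 and 441 at 24 h, against 18.0 and 16.2 at 0.5 h (4.48 ± 0.51, adjusted p = 2.00e-05). BGLU27 had 504 and 420.3 at 24 h, against 31.8 and 12.7 at 0.5 h (4.36 ± 0.57, adjusted p = 6.37e-05). BGLU44 went the other way, with 20.6 and 23.9 at 24 h, against 50.2 and 100.5 at 0.5 h (-1.59 ± 0.26, adjusted p = 0.000315). UDP-glycosyltransferase genes, whose enzymes attach sugars, rose in 6 of 33 and none fell (median 0.34), against the same 8.02% and 6.52%. Without replicate 1 of 0.5 h, 4 rose and 1 fell, and with 1 h as the reference 3 rose. UGT71B6, which is known to glucosylate abscisic acid, had 48.4 and 50.3 at 24 h, against 7.29 and 0.521 at 0.5 h (3.34 ± 0.60, adjusted p = 0.000681). UGT73C7 had 117 and 131 at 24 h, against 28.4 and 26.4 at 0.5 h (2.09 ± 0.39, adjusted p = 0.000876).

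Glutathione transferases rose in 3 and fell in 3 of 12 members, against 8.02% and 6.52% of all probe sets. GSTU16 had signals of 65.0 and 56.5 at 24 h, against 11.1 and 15.7 at 0.5 h (2.03 ± 0.23, adjusted p = 1.68e-05), and GSTL3 rose by 1.37 ± 0.20. GSTU20 had 18.6 and 36.2 at 24 h, against 119 and 186 at 0.5 h (-2.41 ± 0.33, adjusted p = 8.60e-05). GSTU23 had 12.8 and 12.7 at 24 h, against 55.7 and 52.4 at 0.5 h (-1.91 ± 0.32, adjusted p = 0.000417). The tau class thus holds clear changes in both directions. Class III peroxidases, which act in walls on lignin and reactive oxygen, rose in 4 and fell in 4 of 30 (median -0.18), against 8.02% and 6.52% of all probe sets. PRX52, a peroxidase of lignin formation, had 261 and 251 at 24 h, against 20.0 and 18.3 at 0.5 h (3.60 ± 0.33, adjusted p = 3.42e-06). AT1G14550 had 301 and 202 at 24 h, against 32.4 and 21.0 at 0.5 h (3.13 ± 0.59, adjusted p = 0.00093). AT4G11290 had 65.0 and 55.6 at 24 h, against 226 and 215 at 0.5 h (-1.83 ± 0.44, adjusted p = 0.00458). It was the one falling peroxidase that remained called without each of the 4 arrays, while 3 of the 4 rising ones did.

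Signalling genes that rose included WRKY22, a transcription factor of defence, with signals of 253 and 171 at 24 h, against 33.3 and 32.8 at 0.5 h (2.58 ± 0.49, adjusted p = 0.001). BZIP53, a transcription factor of amino acid metabolism and seed maturation, had 1897 and 1989 at 24 h, against 626 and 690.3 at 0.5 h (1.56 ± 0.28, adjusted p = 0.000628). It was 1 of 3 rises, with BZIP60 and bZIP58, among 11 bZIP genes, against 8.02% of all probe sets. The call of bZIP58 (1.70 ± 0.45) was lost when replicate 1 of 0.5 h (1.49) or, in turn, replicate 2 of 24 h (1.54) was left out. JRG21, a 2-oxoglutarate-dependent dioxygenase induced by jasmonate, had 284 and 260 at 24 h, against 15.6 and 11.7 at 0.5 h (4.12 ± 0.54, adjusted p = 6.33e-05). CML37, a calmodulin-like calcium sensor, had 678 and 760 at 24 h, against 54.3 and 43.8 at 0.5 h (3.82 ± 0.68, adjusted p = 0.000628), a call lost with 1 h as the reference (1.81, adjusted p = 0.0627). COR27 and AT4G33980, known as COR28, are a related pair of cold-regulated genes that act on the circadian clock. COR27 had 113 and 91.6 at 24 h, against 0.974 and 5.14 at 0.5 h (4.43 ± 0.47, adjusted p = 1.08e-05), and AT4G33980 rose by 2.28 ± 0.44. The clock gene GI was not called, with signals of 176 and 187 at 24 h, against 201 and 236 at 0.5 h (-0.26 ± 0.20, adjusted p = 0.34).

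A list of dehydrin, LEA and cold-regulated genes rose in 4 and fell in 1 of 15 members in roots, against 8.02% and 6.52% of all probe sets. The largest of its 4 rises was that of COR27 (4.43). The LEA genes AT3G02480 and AT3G15670 are not in this list. LEA4-5 had signals of 1142 and 735 at 24 h, against 58.1 and 57.8 at 0.5 h (3.93 ± 0.58, adjusted p = 0.000156). XERICO, a RING finger gene that promotes abscisic acid accumulation, was the member that fell, with 139 and 143 at 24 h, against 311 and 304 at 0.5 h (-1.11 ± 0.15, adjusted p = 9.94e-05), a call lost with 1 h as the reference. COR15A (2.89 ± 0.79) and LEA18 (2.73 ± 0.78) rose too, but both calls were lost without replicate 1 of 24 h (adjusted p = 0.0696 and 0.125), that of COR15A also without replicate 1 of 0.5 h (0.108) or with 1 h as the reference (0.219) and that of LEA18 without replicate 2 of 0.5 h (0.0814). The dehydrins LTI30 and COR47, chosen after their values were seen, were bright at both times. LTI30 had 2850.0 and 2942 at 24 h, against 2106 and 1742 at 0.5 h (0.60), and COR47 had 2171 and 1959 at 24 h, against 1589 and 1577 at 0.5 h (0.38). Neither was called. The list's counts moved with single arrays, to 3 rises and 2 falls when replicate 2 of 0.5 h was left out. There were 2 rises and 1 fall when replicate 1 of 24 h was left out, and 4 rises and 2 falls when replicate 2 of 24 h was.

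Among genes still at least at the 25th percentile of all values at 24 h, the largest fall was that of BCAT4, the aminotransferase that starts methionine chain elongation for aliphatic glucosinolates, sulfur-rich defence compounds. It had signals of 40.5 and 82.2 at 24 h, against 875 and 954 at 0.5 h (-3.93 ± 0.36, adjusted p = 3.46e-06). AT2G31790, which encodes UGT74C1, a glucosyltransferase of the same pathway, had 32.5 and 46.1 at 24 h, against 131 and 185 at 0.5 h (-1.95 ± 0.33, adjusted p = 0.000434). The glucosinolate transporters GTR1 (0.06 ± 0.16, adjusted p = 0.801) and GTR2 (-0.06 ± 0.17, adjusted p = 0.826) were not called. The 2 synthesis genes of this list of 4 were therefore lower at 24 h, and the 2 transporter genes were within 2-fold, although GTR1 stood at -1.37 with 1 h as the reference.

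The other large falls were in genes of varied function. AT2G19970 and PR-1-LIKE belong to the family of the pathogenesis-related protein PR-1. AT2G19970 had signals of 42.4 and 56.5 at 24 h, against 648 and 625 at 0.5 h (-3.64 ± 0.40, adjusted p = 1.39e-05). PR-1-LIKE had 18.6 and 27.0 at 24 h, against 242 and 262 at 0.5 h (-3.37 ± 0.47, adjusted p = 0.000106). AT4G22212, a defensin-like protein, had 68.2 and 101.3 at 24 h, against 633 and 871 at 0.5 h (-3.13 ± 0.40, adjusted p = 5.39e-05). These 3 genes were moderately bright at 0.5 h on both arrays and low on both arrays of 24 h. AT4G24780, a pectate lyase, had 128 and 138 at 24 h, against 592 and 1046 at 0.5 h (-2.55 ± 0.31, adjusted p = 3.89e-05). AT1G56680, of the chitinase family, fell by 2.59 on the log2 scale, and AT5G14650, of the polygalacturonase type, by 2.85. AT1G21440, of the phosphoenolpyruvate carboxylase family, had 61.5 and 81.3 at 24 h, against 454 and 519 at 0.5 h (-2.74 ± 0.22, adjusted p = 1.38e-06). AT5G52790, a CBS domain protein, had 11.8 and 10.3 at 24 h, against 89.0 and 108 at 0.5 h (-2.92 ± 0.28, adjusted p = 4.36e-06). AT3G01260, of the galactose mutarotase type, fell by 2.73.

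Falls that reached the dim end of the array included AT4G01390, a TRAF-like protein, with signals of 6.42 and 1.56 at 24 h, against 120.8 and 149 at 0.5 h (-4.58 ± 0.80, adjusted p = 0.000547). AT5G52710, of a copper transport family, had 10.9 and 5.03 at 24 h, against 149.6 and 83.7 at 0.5 h (-3.55 ± 0.48, adjusted p = 7.93e-05). AT3G50190 had 4.87 and 5.50 at 24 h, against 84.0 and 68.1 at 0.5 h (-3.40 ± 0.45, adjusted p = 6.33e-05), and AT1G29670, a GDSL-type lipase, fell by 2.46. AT1G73120 had 2.40 and 14.2 at 24 h, against 162 and 19.1 at 0.5 h, and leaving out replicate 1 of 0.5 h (adjusted p = 0.366) ended its call, as did leaving out replicate 1 of 24 h (adjusted p = 0.253).

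Wall-modifying families moved in parts, and their counts stand beside 8.02% higher and 6.52% lower among all probe sets. Of 14 expansin genes, whose proteins loosen walls, 2 expansin-like genes rose and 4 genes of the EXPA and EXPB branches fell (median 0.40). The EXPA branch did not move as 1 group. EXPA18 (0.99 ± 0.28, adjusted p = 0.0121) and EXPA7 (0.79 ± 0.56, adjusted p = 0.29) were higher at 24 h but not called. EXLB1 had signals of 1164 and 1234 at 24 h, against 175 and 131 at 0.5 h (2.97 ± 0.46, adjusted p = 0.000245). EXLA2 had 78.0 and 59.3 at 24 h, against 10.1 and 16.99 at 0.5 h (2.19 ± 0.48, adjusted p = 0.00249). EXPB3 had 27.4 and 40.5 at 24 h, against 100.5 and 301 at 0.5 h (-2.31 ± 0.55, adjusted p = 0.00468), and EXPB2, EXPA4 and EXPA15 fell by 1.49, 1.14 and 1.07. The 2 rises remained called without each of the 4 arrays and none of the 4 falls did. The falls numbered 1 when replicate 2 of 0.5 h was left out and 0 when replicate 1 of 24 h was. Endoglucanases of glycosyl hydrolase family 9, which act on cellulose and related glucans, fell in 3 of 6 members and none rose (median -1.04). GH9B13 had 45.5 and 46.7 at 24 h, against 288 and 474 at 0.5 h (-2.94 ± 0.71, adjusted p = 0.00488), and GH9B7 had 178 and 182 at 24 h, against 403 and 414 at 0.5 h (-1.17 ± 0.29, adjusted p = 0.00526). Genes of the trichome birefringence-like family, which acetylate wall polysaccharides, fell in 3 of 14 and none rose (median -0.32). TBL36 led them with 61.0 and 68.1 at 24 h, against 300 and 449 at 0.5 h (-2.47 ± 0.42, adjusted p = 0.000475). Of 6 xyloglucan endotransglucosylase genes, which remodel wall glucans, EXGT-A3 rose by 1.29 ± 0.24 and XTH20 fell by 1.62. The call of XTH20 was lost when any 1 of the 4 arrays was left out (adjusted p between 0.0544 and 0.095).

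Secreted proteases also divided, and their counts stand beside the same 8.02% higher and 6.52% lower. Subtilases, serine proteases of the cell wall space, rose in 2 and fell in 2 of 7 members. SBT3.3, known from defence priming, had signals of 79.7 and 122 at 24 h, against 17.2 and 6.49 at 0.5 h (2.96 ± 0.54, adjusted p = 0.000767), and SBT3.5 rose by 1.40 ± 0.21. SBT4.12 had 148 and 105 at 24 h, against 534 and 479 at 0.5 h (-2.00 ± 0.44, adjusted p = 0.00277). SBT1.3 fell by 2.12 and was not called without replicate 1 of 24 h (adjusted p = 0.0536). Serine carboxypeptidase-like genes rose in 2 and fell in 6 of 17 (median -0.51), with SCPL45 at 62.3 and 73.0 at 24 h, against 216 and 228 at 0.5 h (-1.68 ± 0.16, adjusted p = 4.95e-06). The falls in this family depended on the arrays, numbering 3 without replicate 2 of 0.5 h, 2 without replicate 1 of 24 h and 5 without either of the other arrays, and only 1 rise remained called except without replicate 2 of 0.5 h. RALFL34, a peptide of the rapid alkalinization factor family known from lateral root initiation, had 68.6 and 75.5 at 24 h, against 190.1 and 203 at 0.5 h (-1.42 ± 0.22, adjusted p = 0.000207).

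Cell division genes fell in 10 of 18 measured members and none rose, against 6.52% of all probe sets lower, with a list median of -1.21. TOPII, DNA topoisomerase II, had signals of 30.2 and 35.8 at 24 h, against 152 and 159 at 0.5 h (-2.17 ± 0.26, adjusted p = 3.33e-05). 3xHMG-box2, a protein that binds mitotic chromosomes, had 48.1 and 56.3 at 24 h, against 201 and 261 at 0.5 h (-2.09 ± 0.32, adjusted p = 0.00021). AUR2, a mitotic kinase, had 24.9 and 37.4 at 24 h, against 88.8 and 119 at 0.5 h (-1.68 ± 0.25, adjusted p = 0.000155). ASF1B, a histone chaperone of DNA replication, had 46.1 and 23.9 at 24 h, against 135 and 88.4 at 0.5 h (-1.65 ± 0.31, adjusted p = 0.000937). All 10 remained called without each of the 4 arrays. Of 7 tubulin genes, 2 fell, against 6.52% of all probe sets, and none rose (median -0.96). TUA6, an alpha tubulin, had 497 and 590.2 at 24 h, against 1291 and 1279 at 0.5 h (-1.24 ± 0.25, adjusted p = 0.00147), a call lost with 1 h as the reference, which left TUB5 (-1.27 ± 0.21).

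Among the brightest falling genes at 0.5 h, 5 encode cytosolic ribosomal proteins, AT2G37190, AT2G32060, AT4G29410, AT3G52580 and AT3G16080. These genes were chosen for their brightness among the called falls. Ribosomal protein genes were not counted as a list, so whether they fell more often than all probe sets was not tested. AT2G32060, ribosomal protein S12, had signals of 579 and 547 at 24 h, against 1376 and 1170.0 at 0.5 h (-1.17 ± 0.16, adjusted p = 7.42e-05). The 5 falls lay between -1.003 and -1.17, just past the 2-fold limit, and none of the 5 was called with 1 h as the reference. AT3G52580 without replicate 2 of 0.5 h, and AT3G16080 without replicate 1 of 0.5 h or replicate 2 of 24 h, were under 2-fold. With arrays centred on their median, AT3G16080 (-0.93), AT3G52580 (-0.98) and AT4G29410 (-0.99) were under 2-fold too. 2 phosphoethanolamine N-methyltransferases, which make the choline head group of membrane lipids, fell as well. AT1G73600 had 15.6 and 22.8 at 24 h, against 179 and 188 at 0.5 h (-3.13 ± 0.28, adjusted p = 3.38e-06). PMEAMT had 510.0 and 568 at 24 h, against 1216 and 1037 at 0.5 h (-1.06 ± 0.20, adjusted p = 0.000796), a difference of -0.94 and -0.98, under 2-fold, without replicate 1 of 0.5 h or replicate 1 of 24 h.

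**Figure D3:**
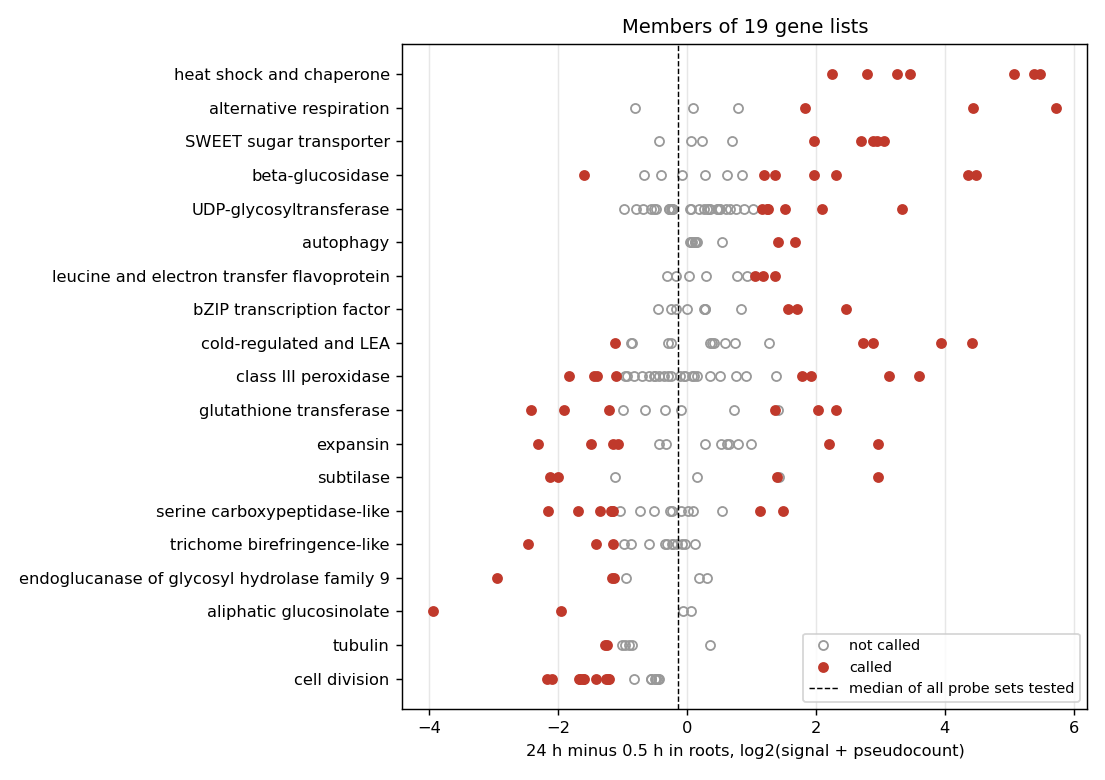
Difference between 24 h and 0.5 h in roots (log2 scale with the pseudocount) for each measured member of 19 gene lists, filled where called and open where not, with the median of all probe sets, -0.14, as a dashed line. All heat shock and chaperone members lie to the right and all cell division members to the left of that line, while peroxidases, glutathione transferases, subtilases and expansins have called members on both sides.

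Against 14.5% of all probe sets called, no member was called among 12 ubiquitin-specific proteases, 6 iron-responsive basic helix-loop-helix factors, 5 methionine sulfoxide reductases or 8 U-box ubiquitin ligases. Some members were near a call, as MSRB5, a methionine sulfoxide reductase, had a difference of -0.95 (adjusted p = 0.0147) and the U-box gene PUB23, chosen after its values were seen, one of 1.14 (adjusted p = 0.124). Among 69 genes of the plastid genome, psaA alone was called (1.003 ± 0.23), not without replicate 1 of either time, and the list median was 0.46, against -0.14 for all probe sets. The reference genes GAPC2, with signals of 2767 and 2695 at 24 h, against 3136 and 2963 at 0.5 h (-0.16 ± 0.11), and AT4G34270 (-0.35 ± 0.16) were not called.

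Some named genes that changed lie close together in the genome, by gene order in RefSeq annotation of assembly TAIR10.1. BGLU24 and the lectin AT5G28520 are adjacent protein-coding genes on chromosome 5, and rose by 4.48 and 6.82. UGT73D1 (1.26, a call lost with 1 h as the reference) and UGT73C7 (2.09) are adjacent on chromosome 3, and SBT3.5 and SBT3.3, 1 gene apart on chromosome 1, both rose. GSTU23 and GSTU20 on chromosome 1, with 2 genes between them, both fell, as did AT2G19970 and PR-1-LIKE on chromosome 2, with 1 gene between them. The MATE genes AT2G04050 and AT2G04070 lie on chromosome 2 with 4 genes between them, and both rose. Pairs with 3 or 4 genes between them were also called in opposite directions. They were AT1G71530 (4.81) and AT1G71695 (-1.4), AT2G32020 (3.43) and AT2G32060 (-1.17), and EXPA4 (-1.14) and RCA (1.18). At such distances AT4G33980 (2.28) rose with MCCB (1.06), and AT5G06730 (1.78) with LEA4-5 (3.93). Whether neighbours change together more often than other genes was not tested. The cytochrome P450 genes CYP71B35 (1.2) and CYP71B37 (-2.19), on chromosome 3 with 1 gene between them, were called in opposite directions. CYP71B35 was dim at both times, with 7.36 and 5.61 at 24 h, against 2.69 and 0.685 at 0.5 h, all under the 25th percentile of 10.7. Its call was lost with a pseudocount of 16 (0.35), with quantile normalization (0.81) and with 1 h as the reference. That call was also lost without replicate 2 of 0.5 h (0.82) or either array of 24 h (1.05 and 1.35). The calls of AT1G71695, EXPA4, RCA and MCCB did not remain without each of the 4 compared arrays in turn. None of these probe sets is of a kind marked as sharing probes.

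Over the root series, genes higher at 24 h had reached that level by different paths. The mean signal was highest at 24 h in 505 of the 1219 called rises (41.4%), at 6 h in 476 (39.0%), at 12 h in 176 and earlier in 62. The lowest mean was at 24 h in 509 of the 991 called falls (51.4%) and at 6 h in 300 (30.3%). The calls themselves used 24 h and 0.5 h, and all times share the 0.5 h arrays, so these counts are descriptions. SWEET13 had mean signals of 32.0, 32.8, 24.1 and 26.1 at 0.5, 1, 3 and 6 h, then array signals of 31.1 and 102 at 12 h, followed by 217 and 222 at 24 h. EXLB1 had means of 153, 134, 155 and 190 at 0.5, 1, 3 and 6 h, then 451 and 1883 at 12 h and 1164 and 1234 at 24 h. PRX52 and ATHSP22.0 also had their highest mean at 24 h, with means of 38.9 and 51.8 at 6 h. In contrast, JRG21 had means of 13.7, 10.1, 155 and 678 at 0.5, 1, 3 and 6 h, and 314 and 103 at 12 h, before 284 and 260 at 24 h. AT3G53600 stood at 16.1, 103, 892 and 1934 at these times and at 745 and 701 at 24 h. scpl30, a serine carboxypeptidase-like gene, had 12.9, 48.5, 577 and 650 at 0.5, 1, 3 and 6 h and only 38.8 and 40.7 at 24 h, so its call (1.48 ± 0.35) was lost with 1 h as the reference. GH3.1, an enzyme that conjugates auxin, had 785 and 460 at 6 h and 73.6 and 53.1 at 24 h, and its call at 24 h (1.88 ± 0.57) held without replicate 2 of 24 h alone. OPCL1, a jasmonate synthesis enzyme, had 1884 and 1623 at 6 h, and at 24 h it had 246 and 235, against 249 and 164 at 0.5 h, with no call. SWEET13 and EXLB1 at 6 h were still near their level at 0.5 h. Since the 2 root arrays of 12 h disagree, both are given for SWEET13, EXLB1 and JRG21. They were also far apart for ATHSP22.0, with 146 and 663 at 12 h, against 687 and 554 at 24 h. AT3G53600 had 1232 and 216 at 12 h.

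**Figure D4:**
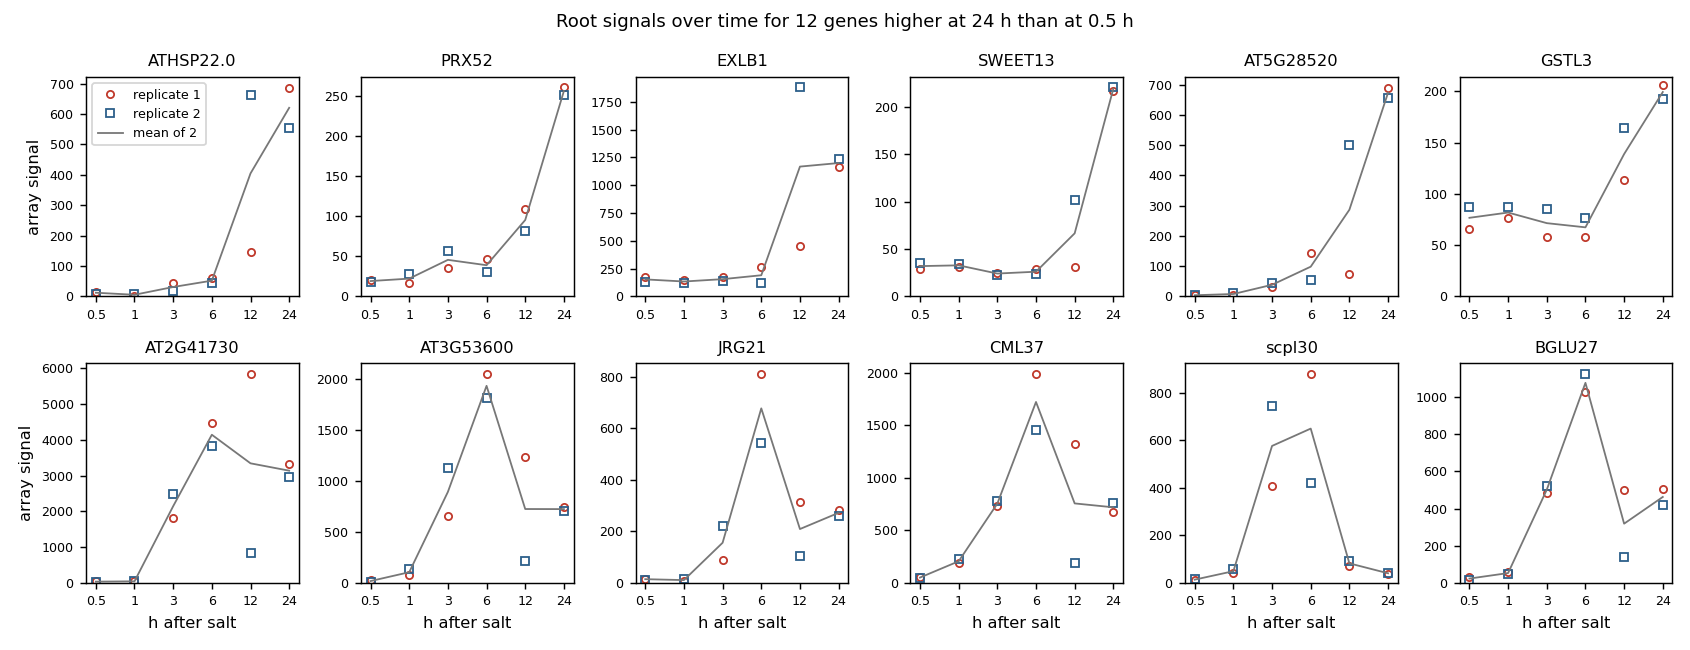
Root signals at 0.5, 1, 3, 6, 12 and 24 h after salt (evenly spaced, linear signal axis from 0), with a circle and a square for the 2 arrays of each time and a line through their mean. The 6 genes of the upper row have their highest mean at 24 h and those of the lower row at 6 h, and the 2 arrays of 12 h lie far apart in most panels.

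The same comparison in shoots shares no array with that in roots, and 2194 probe sets (14.4%) were called there, 1136 higher (7.47%) and 1058 lower (6.96%). Of the root rises, 314 were also called higher in shoots, which is 25.8% of the root rises and 27.6% of the shoot rises. Of the root falls, 196 were also lower in shoots, which is 19.8% of the root falls and 18.5% of the shoot falls. 83 root rises were called lower in shoots and 20 root falls higher. The interaction, which tests the root change minus the shoot change, was called for 2644 probe sets (17.4%). It was called higher in 9.0% and lower in 8.4% of all probe sets. It was higher in 615 (50.5%) of the root rises and lower in 307 (31.0%) of the root falls. The interaction contains the same root change by which these probe sets were called, so the choice itself raises both shares.

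The interaction was largest in genes that rose in roots and stayed low in shoots. AT1G74870 had signals of 978 and 999 in roots at 24 h, while in shoots it had 1.82 and 1.06 at 24 h, against 1.22 and 4.80 at 0.5 h (root minus shoot change 8.46 ± 1.16, adjusted p = 0.000154). AT3G54520 had 248 and 176 in roots at 24 h, against 0.725 and 0.421 at 0.5 h, and under 2 on all 4 shoot arrays (6.75 ± 1.096, adjusted p = 0.00055). AT2G41730, AT4G16680, AT5G28520 and NDB4 differed likewise by 6.89, 6.89, 6.77 and 6.19. AT2G04050 (5.63), BGLU24 (4.68), AT2G21640 (4.31), PRX52 (3.24) and SWEET8 (2.97) also changed more in roots, and AT2G21640 lost this call without replicate 1 of roots at 24 h (adjusted p = 0.0526).

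In some genes roots and shoots moved in opposite directions. ATG8E rose in roots by 1.67 and fell in shoots, with 63.1 and 57.5 in shoots at 24 h, against 371 and 437 in shoots at 0.5 h (root minus shoot change 4.37 ± 0.28, adjusted p = 1.30e-07). MCCA rose in roots by 1.17 and fell in shoots, with 72.3 and 65.5 at 24 h, against 247 and 340 at 0.5 h (3.21 ± 0.27, adjusted p = 1.71e-06). SWEET2 rose in roots by 2.95 and fell in shoots, with 106 and 146 at 24 h, against 242 and 350 at 0.5 h (4.16 ± 0.43, adjusted p = 1.47e-05). AT5G37540, an aspartyl protease, fell in roots, with 142 and 120.7 at 24 h, against 381 and 341 at 0.5 h, and rose in shoots, with 209 and 203 at 24 h, against 35.0 and 40.5 at 0.5 h (-3.83 ± 0.31, adjusted p = 1.04e-06). XERICO fell in roots and rose in shoots by 1.01 (-2.13 ± 0.22, adjusted p = 1.24e-05). AT2G46940 fell in roots by 1.58, a call lost in roots without replicate 1 of 24 h or either array of 0.5 h (adjusted p between 0.0518 and 0.0883), and rose in shoots by 2.65 (-4.22 ± 0.61).

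Of the 15 listed dehydrin, LEA and cold-regulated genes, XERICO and COR27 among them, 4 were called higher in roots and 10 in shoots. These counts stand beside 8.02% and 7.47% of all probe sets. The interaction was lower in 8 and higher in 2, COR27 (4.28) being 1 of the 2, against 8.4% and 9.0% of all probe sets. Of the 7 heat shock and chaperone genes, 7 were higher in roots (median 3.46) and 6 in shoots (median 2.70), and the interaction was higher in 1 and lower in 0. LEA4-5 ended at 1142 and 735 in roots and 1182 and 1272 in shoots at 24 h, but began at 58.1 and 57.8 in roots and 2.61 and 13.4 in shoots at 0.5 h (-3.21 ± 0.82, adjusted p = 0.0098). This call was lost without replicate 1 of shoots at 0.5 h (adjusted p = 0.0525). ALDH7B4, an aldehyde dehydrogenase of turgor loss, had 1667 and 1663 in roots at 24 h, against 661 and 651 at 0.5 h, and 2446 and 2797 in shoots at 24 h, against 146 and 236 at 0.5 h (-2.46 ± 0.39, adjusted p = 0.000421). AT1G16850 (-5.25 ± 0.82) and AT3G14280 (-4.74 ± 0.73) differed in the same direction, from root levels of 23.1 to 205 and shoot levels under 3 at 0.5 h. Their root rises (1.71 and 1.56) were not kept without single arrays, with adjusted p between 0.0671 and 0.224 where lost. The 307 root falls with a lower interaction included AT5G52710 (-4.01 ± 0.68), AT5G52790 (-3.72 ± 0.39), AT4G22212 (-3.51 ± 0.57), AT1G21440 (-3.47 ± 0.31), BCAT4 (-3.45 ± 0.51) and GSTU20 (-2.07 ± 0.46), with BCAT4 at 703 and 521 in shoots at 24 h, against 886 and 809 at 0.5 h. AT2G37870, EXLB1 and AT4G01390 had root minus shoot changes of -0.18 ± 0.53, -0.28 ± 0.65 and -0.26 ± 1.14, none of them called.

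**Figure D5:**
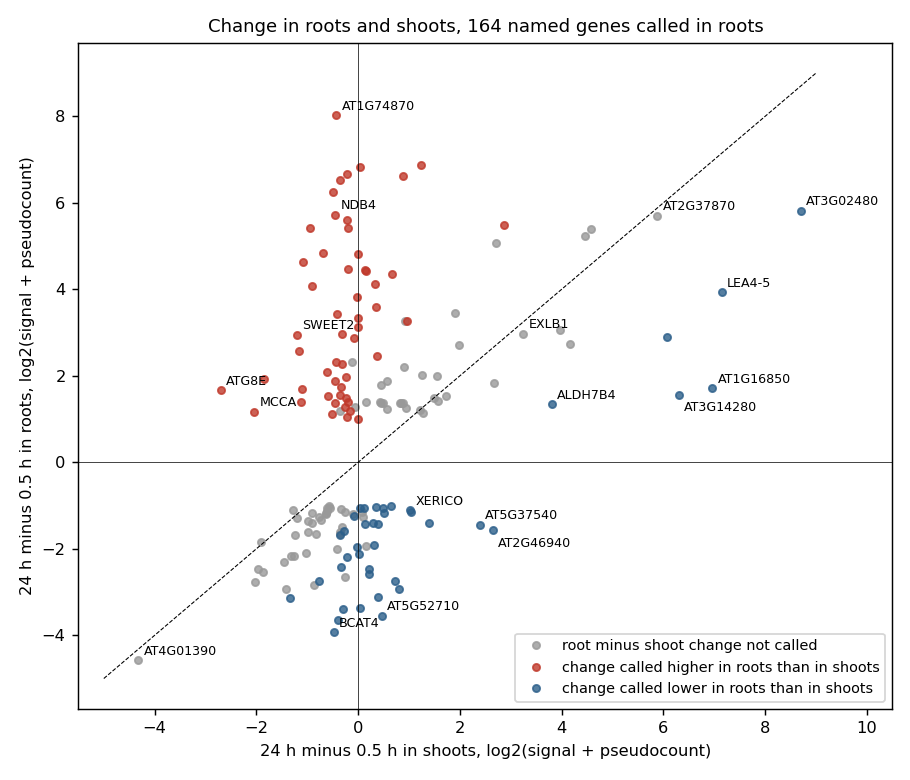
Change in roots (vertical) against change in shoots (horizontal), both 24 h minus 0.5 h on the log2 scale with the pseudocount, for 164 named genes called in roots, coloured by the test of the root minus shoot change. The dashed line marks equal change, and ATG8E, SWEET2 and MCCA lie upper left of 0 while XERICO and AT5G37540 lie lower right.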

How the data were processed

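RNA of roots and shoots was hybridised to Affymetrix ATH1 arrays, 1 sample an array. The deposited values are linear signal intensities made with MAS5, per the submitters' processing notes, with the version and scaling not given in the sources used here. Of 22810 probe sets, 64 are controls, 13513 carry 1 gene, 503 several and 8794 none here, and 13436 were matched to RefSeq genes. Probe sets without a single gene were tested but not named.

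Values were taken as log2(signal + 2.205), where 2.205 is the 10th percentile of all values, for the 15199 probe sets at or above the overall median, 41.67, on at least 2 arrays. limma 3.58.1 (R 4.3.3) fitted 12 groups over 24 arrays with a mean-variance trend. Benjamini-Hochberg adjustment ran over all 15199, and a call needs an adjusted p under 0.05 and at least 2-fold. The interaction is the root change minus the shoot change. Python 3.11.15, pandas 2.3.3 and matplotlib 3.10.9 were used for tables and figures. Data were simulated for 15199 probe sets, each with 1 mean in all groups, independent normal noise, and changes in roots at 24 h alone. In these data, 83 of 100 changes of 1.5 and 98 of 100 of 3 (log2) were called, with 5 false calls. The real arrays differ by tissue and time, so this count does not give the error of the real calls.

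Named genes are the 12 largest rises and 12 largest falls among called single-gene probe sets whose arrays do not overlap and whose lower mean is at least the 25th percentile. To these were added the 6 brightest each way below that percentile, the 8 brightest each way, up to 4 called members a list each way with all members of lists of 5 or fewer, and the 5 highest and 5 lowest interactions. The comparison, the named genes and the lists were chosen with earlier results of these data known. 32 lists were written by locus and 39 by gene symbol after the gene names were seen. Of the lists by locus, 6 had no measured member, those of ion transport, aquaporins, abscisic acid signalling, nitrate, sulfate and phosphate, root meristem, and vascular tissue.

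The alternatives tried were other pseudocounts, filters and thresholds, centring or quantile normalization, fits without the trend, without the 12 h root arrays, on the 12 root arrays or the 4 arrays alone, 1 h as the reference, the replicate number as a block, and leaving out each array.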

Additional observations from a re-analysis of the deposited data

Results flagged for a closer look

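In 99 of the 195 named genes the change at 24 h differed between roots and shoots, by limma's interaction test, against 17.4% of all probe sets. Most named genes were chosen among those called in roots, and some by their interaction, so the choice itself raises this count. Of the 99, 24 chosen after their values were seen are given here. The values are root minus shoot change on the log2 scale with the pseudocount. The change was higher in roots for AT1G74870 (8.46), AT2G41730 (6.89), AT4G16680 (6.89), AT5G28520 (6.77), AT3G54520 (6.75), NDB4 (6.19), AT2G04050 (5.63) and BGLU24 (4.68). It was also higher in roots for ATG8E (4.37), AT2G21640 (4.31), SWEET2 (4.16), PRX52 (3.24), MCCA (3.21) and SWEET8 (2.97). It was lower in roots for AT1G16850 (-5.25), AT3G14280 (-4.74), AT2G46940 (-4.22), AT5G52710 (-4.01) and AT5G37540 (-3.83). It was also lower in roots for BCAT4 (-3.45), LEA4-5 (-3.21), ALDH7B4 (-2.46), XERICO (-2.13) and GSTU20 (-2.07). The call of LEA4-5 was lost without replicate 1 of shoots at 0.5 h (adjusted p = 0.0525), and that of AT2G21640 without replicate 1 of roots at 24 h (adjusted p = 0.0526).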

How the results depend on the processing

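Of the 2210 probe sets called in roots, the count moved by over 1.5 times only with no fold limit, to 5337 (1953 higher and 3384 lower), and otherwise lay between 1599 and 2618, from 1599 to 2137 where 1 array was left out. With a pseudocount of 16, 630 were lower against 991. The interaction count of 2644 was 3984 with no fold limit and 1620 at an adjusted p under 0.01, and lay between 2012 and 2395 where 1 array was left out. Higher calls were 55.2% of all and 62.8% with arrays centred on their median. Of 195 named genes, calls were lost for 35 with 1 h as the reference, 32 at an adjusted p under 0.01, 25 with a pseudocount of 16 and 9 with centring, and for 20 to 44 where 1 array was left out. With 1 h as the reference, GTR1 (-1.37), ORA47 (-0.35), UGT73B5 (-0.23) and scpl30 (-0.25) turned direction, and the cause was not tested. With the replicate number as a block, 2208 probe sets were called in roots and 2624 in the interaction, and no named gene lost its call. Same-numbered arrays of 24 h and 0.5 h deviated with a correlation of 0.066. With 2 arrays a group, this value cannot show whether they share a culture or a day. Signal over background limits genes dim at 1 time, where the size of a change depends on the pseudocount. The planned search of promoters for motifs was not run.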
